A study of Homo sapiens with 12 samples.

Results

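Messenger RNA levels of 55 genes for core proteins of the spliceosome and of its small nuclear ribonucleoproteins (snRNPs) were described in cells depleted of RBM17, U2SURP or CHERP. The 55 genes were taken from a list of symbols that covers the U2 snRNP, the Sm ring, the U1 snRNP, the U4/U6.U5 tri-snRNP, the PRPF19 complex (NTC) and factors of the catalytic steps. All 55 were found among the 60554 gene identifiers of the count files, and all 55 were among the 29003 genes that passed the filter on low counts. The list names genes by their role in splicing and its rule uses no measured value, and each gene was placed in 1 of 8 groups by that role. It was chosen with earlier results of these data known, so counts over it are descriptions.

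The cells were HEK293, a human line of embryonic kidney origin; the cell line label reads HEK293T, its SV40 T antigen derivative, and the passage label reads 10 for every library. Of the 12 libraries, 3 came from cells given an ON-TARGETplus SMARTpool siRNA against RBM17, 3 from cells given such a pool against U2SURP, 3 from cells given such a pool against CHERP, and 3 from cells given non-targeting siRNA number 3, for which no pool is named. The labels do not say whether the 3 libraries of a group are separate cultures, and p-values reflect only their spread, which may be technical. The library numbers in the titles run in blocks by group, so batch and group cannot be told apart. The comparisons ask what loss of each of these U2-associated splicing factors does to the messages of the core splicing machinery, first against control siRNA and then between the knockdowns.

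The spliceosome removes introns in steps. The U1 snRNP binds the start of the intron, SF1 and the U2AF proteins mark its end, and the U2 snRNP, with its SF3A and SF3B subcomplexes, pairs with the branch site. The U4/U6.U5 tri-snRNP then joins, the PRPF19 complex enters as the spliceosome is activated, and DEAH-box helicases drive the remodelling between the catalytic steps. RBM17 (also called SPF45), U2SURP (SR140) and CHERP are proteins that associate with the U2 snRNP and with each other.

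The 12 libraries held between 252505520 and 320986785 counts on genes, so counting error was small for these genes, whose mean level ran from 13.6 to 934 counts per 1000000 (CPM, on effective library sizes scaled by the TMM method). RBM17 stood at 112, 116 and 118 CPM in the control libraries and at 26.6, 26.0 and 27.0 CPM in its knockdown, 23.0% of control. U2SURP was at 30.5% of control and CHERP at 29.3% of control in their own knockdowns. Of the 7 markers listed for HEK293, 6 were at 1 CPM or more in every library, and PAX2 ranged from 0.481 to 1.80 CPM. The blood marker PTPRC reached at most 0.0125 CPM, HBB was at 0 in every library, the endothelial marker CDH5 reached at most 0.0349 CPM and the hepatocyte marker TTR at most 0.00356 CPM. Summed endothelial markers ranged from 0.473 to 0.580 CPM in control and from 0.983 to 1.19 CPM in RBM17 knockdown, and summed fibroblast markers, nearly all COL1A1, ranged from 18.6 to 22.6 CPM in control and from 10.7 to 15.8 CPM in the knockdowns. Mitochondrial genes took 8.31%, 7.88% and 8.70% of counts in the control libraries and between 3.98% and 5.15% in the knockdown libraries. Control library 3 lay apart from the other control libraries on the first principal component of all genes (-9.5, against -17.6 and -18.4), and counts are therefore also given without it. Summed blood markers ranged from 3.66 to 4.56 CPM in control and from 2.25 to 3.92 CPM in the knockdowns, and summed hepatocyte markers from 1.55 to 1.83 CPM in control, 1.20 to 1.61 CPM in RBM17 knockdown and 2.01 to 3.47 CPM in the others. The part of these differences in the results below was not tested. In bulk libraries fewer cells of a type and less RNA per cell cannot be told apart.

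The printed sequences show the upstream DNA of members described later, 5 with and 1 without a motif that was frequent among the members; they were chosen as examples after their values were seen. Of the 50 members matched to a RefSeq promoter, 33 (66.0%) carried the 6 letters CCGGAA, the core that ETS-family transcription factors bind, on either strand within 250 bases upstream of the start. PHF5A, PRPF3, SF3B3, SNRPD1 and PUF60 were not matched. That share was 14.5% among 34943 RefSeq promoters and 27.5% among 7948 promoters of protein-coding genes with a mean of at least 10 CPM. Sequences are from RefSeq on GRCh38.p14, read 5′ to 3′ in the direction of the gene and limited to bases outside annotated exons; capitals mark CCGGAA or its reverse complement TTCCGG. The genes shown are SNRPC (chr6:34757255-34757405, plus strand), SNRNP40 (chr1:31296789-31296981, minus strand), PRPF19 (chr11:60906589-60906788, minus strand), PRPF6 (chr20:63980882-63981131, plus strand), SF3B6 (chr2:24076444-24076525, minus strand) and DDX46 (chr5:134758529-134758770, plus strand).
SNRPC: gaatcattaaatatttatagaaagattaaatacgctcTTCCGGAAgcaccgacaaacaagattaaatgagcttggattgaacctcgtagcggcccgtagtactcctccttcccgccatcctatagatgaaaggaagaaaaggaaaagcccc
SNRNP40: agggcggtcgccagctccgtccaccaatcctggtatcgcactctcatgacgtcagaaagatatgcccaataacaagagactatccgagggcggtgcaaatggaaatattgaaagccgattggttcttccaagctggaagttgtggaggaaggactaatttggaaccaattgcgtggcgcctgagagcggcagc
PRPF19: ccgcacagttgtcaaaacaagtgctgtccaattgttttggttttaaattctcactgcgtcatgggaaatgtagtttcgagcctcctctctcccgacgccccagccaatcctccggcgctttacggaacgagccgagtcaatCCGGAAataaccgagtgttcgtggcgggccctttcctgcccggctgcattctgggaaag
PRPF6: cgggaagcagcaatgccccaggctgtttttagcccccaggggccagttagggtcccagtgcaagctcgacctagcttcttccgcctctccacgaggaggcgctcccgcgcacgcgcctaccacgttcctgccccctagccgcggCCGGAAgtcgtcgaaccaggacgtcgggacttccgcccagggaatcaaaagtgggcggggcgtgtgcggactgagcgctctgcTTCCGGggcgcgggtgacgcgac
SF3B6: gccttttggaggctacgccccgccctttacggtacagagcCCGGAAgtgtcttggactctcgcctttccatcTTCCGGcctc
DDX46: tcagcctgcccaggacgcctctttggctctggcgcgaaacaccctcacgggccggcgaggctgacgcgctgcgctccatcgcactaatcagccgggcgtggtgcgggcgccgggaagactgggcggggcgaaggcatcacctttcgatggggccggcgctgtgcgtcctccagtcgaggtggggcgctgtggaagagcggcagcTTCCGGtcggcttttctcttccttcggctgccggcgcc

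In SNRPC the letters of both strands overlap in 1 run, PRPF6 and SF3B6 each hold the letters in 2 separate places, and SNRNP40 holds none in the stretch shown. DDX46, the member that fell most in RBM17 knockdown, carries them as well. Of the 33 members with the letters, 28 were higher and 2 lower than control in RBM17 knockdown, with a median log2 fold change of 0.49. Of the 17 members without them, 15 were higher and 1 lower, with a median of 0.45. The medians with and without the letters were 0.28 and 0.18 in U2SURP knockdown, and 0.23 and 0.19 in CHERP knockdown. These differences were not tested. Other promoter motifs were searched in the same windows on both strands. The SP and KLF family letters GGGCGG were in 62.0% of members against 70.0% of the protein-coding genes with at least 10 CPM, and the NF-Y letters CCAAT in 34.0% against 35.7%. A match of letters is a description of these windows and not a bound site.

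Core spliceosome messages were mostly higher after RBM17 knockdown than in control. Of the 55 genes, 48 were higher and 3 lower at an adjusted p under 0.05 (edgeR quasi-likelihood test, Benjamini-Hochberg over all genes tested), and 4 did not pass. The background was high: 54.7% of all genes tested were called, 25.4% higher and 29.3% lower. Among the 9771 protein-coding genes with a mean of at least 10 CPM, 75.3% were called, 51.7% higher and 23.6% lower. The median log2 fold change was 0.43 over the members, -0.0985 over all genes tested and 0.16 over the expressed protein-coding genes. Without control library 3 the members' counts were again 48 higher and 3 lower.

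U2SURP and CHERP knockdown gave smaller increases in the same list. After U2SURP knockdown 38 members were higher, 1 lower and 16 not called, with a median of 0.23, while 43.3% of all genes tested were called (21.1% higher, 22.2% lower; 66.7% called and 39.1% higher among expressed protein-coding genes, whose median was 0.0611). After CHERP knockdown 41 members were higher, 3 lower and 11 not called, with a median of 0.23, while 47.3% of all genes tested were called (22.8% higher, 24.6% lower; 69.6% called and 37.1% higher among expressed protein-coding genes, whose median was 0.0313). Without control library 3 the counts were 43 higher and 2 lower in U2SURP knockdown, and 44 higher and 3 lower in CHERP knockdown. Leaving out control library 1 or 2 instead lost calls. In U2SURP knockdown these were SF1, SNRPD3, PRPF8, PRPF38A, CDC5L and PLRG1, and in CHERP knockdown SF1 and DHX8 were among them. These 3 comparisons share the control libraries, so their results are not independent of each other.

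**Figure D1:**
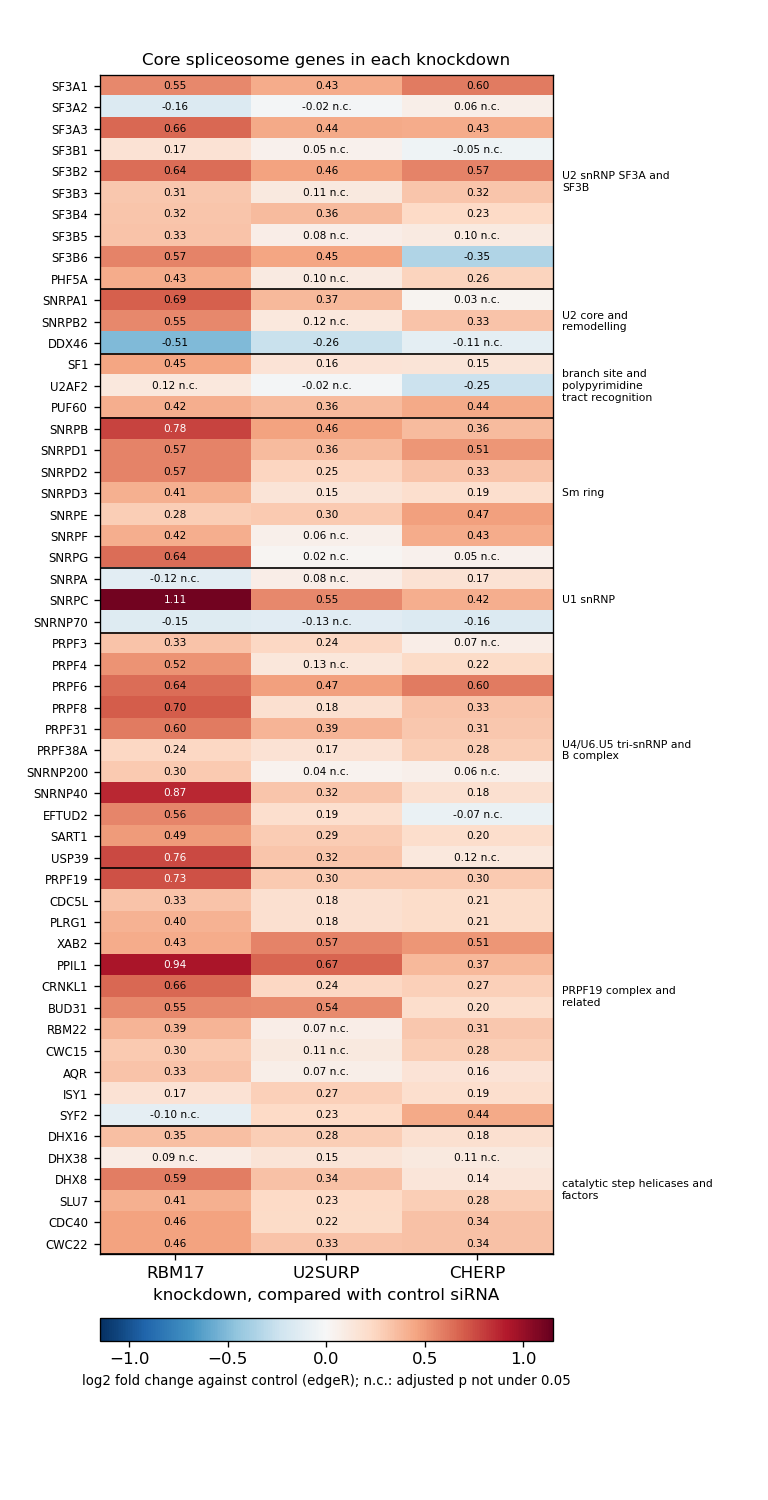
Log2 fold change of each of the 55 genes (vertical axis, by group) in each knockdown against control siRNA (horizontal axis), from the edgeR fit, with n.c. where the adjusted p was not under 0.05. Most cells are positive in all 3 columns; DDX46 at -0.51 in RBM17 knockdown and SF3B6 at -0.35 in CHERP knockdown are the lowest cells.

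By gene, 31 members were called higher in each of the 3 knockdowns. Another 8 were higher in RBM17 and CHERP knockdown without a call in U2SURP knockdown (SF3B3, PHF5A, SNRPB2, SNRPF, PRPF4, RBM22, CWC15 and AQR). A further 4 were higher in RBM17 and U2SURP knockdown without a call in CHERP knockdown (SNRPA1, PRPF3, EFTUD2 and USP39), and 4 were called higher in RBM17 knockdown with no call in the other knockdowns (SF3B1, SF3B5, SNRPG and SNRNP200). The 8 remaining genes were SF3B6, DDX46, SNRNP70, SF3A2, SYF2, DHX38, SNRPA and U2AF2, each with a pattern of its own. The group mean was highest in RBM17 knockdown for 40 of the 55 genes and lowest in control for 46. Neither the joint patterns nor these ranks were counted over other genes, so they have no background share and describe the members alone.

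**Figure D2:**
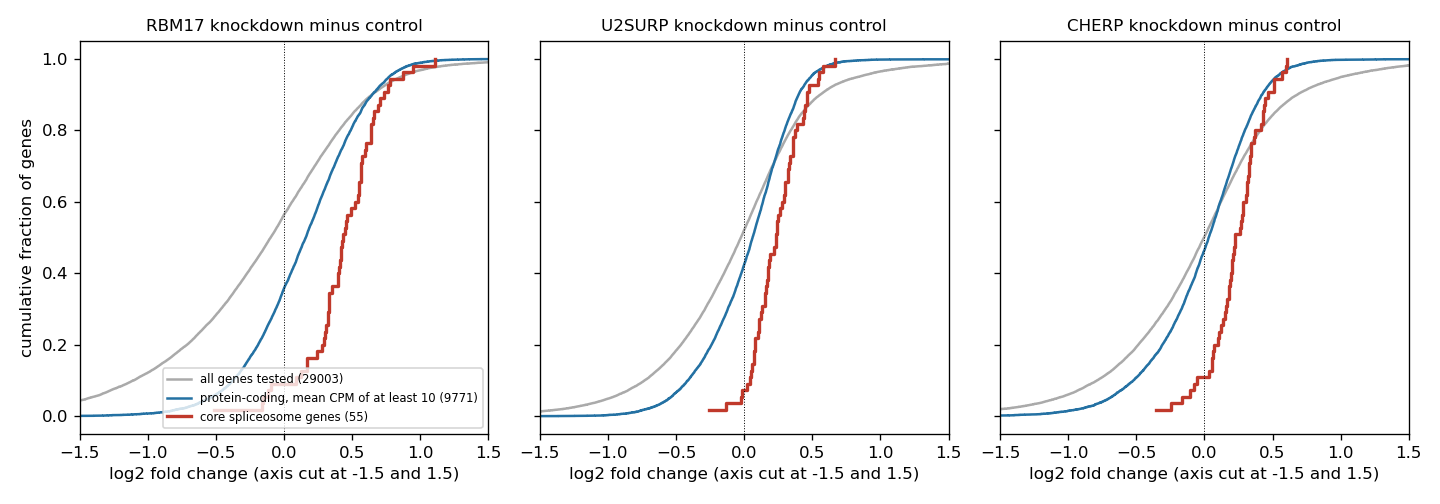
Cumulative fraction of genes (vertical axis) against log2 fold change (horizontal axis, cut at 1.5 on either side of 0) in each knockdown, for the 55 core spliceosome genes, all 29003 genes tested and the 9771 expressed protein-coding genes. The curve of the members lies to the right of both others around its middle, with medians of 0.43, 0.23 and 0.23.

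The U2 snRNP recognises the branch site through SF3A and SF3B. Of these 10 genes, 9 were higher and 1 lower in RBM17 knockdown (median 0.38), 5 were higher in U2SURP knockdown (median 0.24), and 6 were higher and 1 lower in CHERP knockdown (median 0.24). The shares higher were 90.0%, 50.0% and 60.0%, against 51.7%, 39.1% and 37.1% of expressed protein-coding genes. For 10 genes the U2SURP share is near that background. SF3A1 and SF3A3, subunits of the SF3A trimer, rose in every knockdown. SF3A1 (chr22:30331988-30356947) stood at 169, 167 and 176 CPM in control, at 230, 257 and 261 CPM in RBM17 knockdown, at 221, 240 and 232 CPM in U2SURP knockdown and at 260, 261 and 255 CPM in CHERP knockdown. All knockdown libraries were above all control libraries. Its log2 fold change was 0.55 ± 0.0540 (SE) in RBM17 knockdown (adjusted p = 8.18e-09), 0.43 ± 0.0539 in U2SURP knockdown (adjusted p = 6.63e-07) and 0.60 ± 0.0540 in CHERP knockdown (adjusted p = 3.13e-09). SF3A3 rose by 0.66, 0.44 and 0.43 on the same scale and in the same order.

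SF3A2, the remaining SF3A subunit, was at 155, 141 and 131 CPM in control and at 121, 125 and 135 CPM in RBM17 knockdown, where the libraries of the groups overlapped. Its log2 fold change of -0.16 ± 0.0576 passed (adjusted p = 0.0186), but not without control library 1 (-0.0976, adjusted p = 0.174), RBM17 library 1 (-0.13, adjusted p = 0.0777) or RBM17 library 2 (-0.15, adjusted p = 0.0632), nor with DESeq2 (-0.11, adjusted p = 0.129). In U2SURP knockdown it was at 136, 141 and 144 CPM and in CHERP knockdown at 147, 152 and 147 CPM, with no call (-0.024 and 0.0638). GC content and length offsets turned these values to 0.16 (adjusted p = 0.0119) and 0.38 (adjusted p = 1.62e-06), and both then passed. Its exons overlap those of PLEKHJ1 on the opposite strand over 12.7% of their length, and the strand setting of the counting is not given in the sources used here.

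All 7 SF3B genes were higher in RBM17 knockdown. SF3B2, which sits next to the branch site region of the intron, was at 336, 326 and 353 CPM in control, at 489, 549 and 543 CPM in RBM17 knockdown, at 445, 482 and 469 CPM in U2SURP knockdown and at 487, 509 and 508 CPM in CHERP knockdown. Control was below every knockdown library, with log2 fold changes of 0.64, 0.46 and 0.57 in RBM17, U2SURP and CHERP knockdown. SF3B4, an RNA-binding subunit, rose by 0.32, 0.36 and 0.23. SF3B1, the large scaffold that holds the branch site adenosine, was higher in RBM17 knockdown by only 0.17 ± 0.0519 (adjusted p = 0.00771) and had values of 0.0516 in U2SURP knockdown and -0.0527 in CHERP knockdown; its call was lost without RBM17 library 2 (adjusted p = 0.0561). SF3B3 (0.31, 0.11 and 0.32), SF3B5 (0.33, 0.0768 and 0.0989) and PHF5A (0.43, 0.10 and 0.26) each passed in RBM17 knockdown and not in U2SURP knockdown. Without control library 3, PHF5A passed in U2SURP knockdown (adjusted p = 0.0137) and SF3B5 in CHERP knockdown (adjusted p = 0.0292). SF3B3 passed in U2SURP knockdown when only the 2 groups compared were fitted, and with offsets for GC content and length.

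SF3B6 (chr2:24067584-24076443), the small subunit that lies at the branch site adenosine, moved in opposite directions. It was at 121, 125 and 145 CPM in control, at 179, 205 and 198 CPM in RBM17 knockdown, at 179, 177 and 177 CPM in U2SURP knockdown and at 97.5, 103 and 106 CPM in CHERP knockdown. The CHERP libraries lay below every other library, and the RBM17 and U2SURP libraries lay above every control library. Its log2 fold change was 0.57 ± 0.0622 in RBM17 knockdown (adjusted p = 3.54e-08), 0.45 ± 0.0622 in U2SURP knockdown (adjusted p = 3.04e-06) and -0.35 ± 0.0622 in CHERP knockdown (adjusted p = 4.80e-05). Compared directly, SF3B6 was higher than in CHERP knockdown by 0.93 ± 0.0626 in RBM17 knockdown (adjusted p = 1.59e-11) and by 0.80 ± 0.0625 in U2SURP knockdown (adjusted p = 1.34e-09). Per kilobase of exon it was the member with the highest level in its group, at 126 CPM per kb over all libraries, from 85.3 in CHERP knockdown to 162 in RBM17 knockdown.

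SNRPA1 and SNRPB2 encode the pair of U2-specific proteins that bind a stem-loop of U2 snRNA, and DDX46 the helicase that readies U2 for the branch site. SNRPA1 was at 108, 108 and 117 CPM in control, at 173, 178 and 186 CPM in RBM17 knockdown, at 141, 142 and 149 CPM in U2SURP knockdown and at 112, 115 and 114 CPM in CHERP knockdown. The CHERP libraries lay within the control range while the others stood above it. The log2 fold change was 0.69 ± 0.0495 in RBM17 knockdown, 0.37 ± 0.0493 in U2SURP knockdown and 0.0331 ± 0.0493 in CHERP knockdown (adjusted p = 0.620). For its partner SNRPB2 the order of U2SURP and CHERP knockdown was the other way round: control was at 42.0, 45.4 and 53.0 CPM, RBM17 knockdown at 64.8, 72.6 and 68.3 CPM, U2SURP knockdown at 48.8, 51.8 and 51.9 CPM and CHERP knockdown at 53.5, 59.9 and 63.2 CPM. U2SURP libraries lay within the control range, and the other knockdowns lay above it. SNRPB2 passed in RBM17 knockdown (0.55 ± 0.0724) and CHERP knockdown (0.33 ± 0.0723) and had a value of 0.12 ± 0.0723 in U2SURP knockdown (adjusted p = 0.197), which passed without control library 3 (0.22, adjusted p = 0.00930).

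DDX46 (chr5:134758771-134855133) was the member with the largest decrease. It stood at 197, 197 and 199 CPM in control, at 134, 142 and 139 CPM in RBM17 knockdown, at 170, 163 and 164 CPM in U2SURP knockdown and at 181, 182 and 188 CPM in CHERP knockdown. No control library overlapped with any knockdown library, and the 4 groups did not overlap with each other. In RBM17 knockdown DDX46 was at 70.1% of control (log2 fold change -0.51 ± 0.0469, adjusted p = 2.22e-09) and in U2SURP knockdown at 83.8% (-0.26 ± 0.0468, adjusted p = 9.20e-05). The value of -0.11 ± 0.0467 in CHERP knockdown did not pass (adjusted p = 0.0673), although it passed without CHERP library 3 (adjusted p = 0.0223). Between RBM17 and U2SURP knockdown the difference was -0.26 ± 0.0468 (adjusted p = 7.87e-05).

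SF1, the branch point binding protein, U2AF2, the large U2AF subunit that binds the polypyrimidine tract, and PUF60, which binds the same kind of tract, act before U2 is stably bound. PUF60 rose in every knockdown (0.42, 0.36 and 0.44). SF1 was at 427, 421 and 433 CPM in control, at 533, 607 and 609 CPM in RBM17 knockdown, at 475, 485 and 468 CPM in U2SURP knockdown and at 489, 473 and 464 CPM in CHERP knockdown. Control lay below all knockdown libraries. The increase was 0.45 ± 0.0542 in RBM17 knockdown, and 0.16 ± 0.0541 and 0.15 ± 0.0541 in U2SURP and CHERP knockdown. Those small increases did not pass when 1 of several libraries was left out: in U2SURP knockdown its library 1 or 2 or control library 1 or 2 (adjusted p from 0.0529 to 0.0825), and in CHERP knockdown any of its own libraries or control library 1 or 2 (adjusted p from 0.0517 to 0.0762).

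U2AF2 differed from them. It was at 205, 196 and 207 CPM in control, at 206, 229 and 227 CPM in RBM17 knockdown, at 212, 190 and 198 CPM in U2SURP knockdown and at 180, 163 and 169 CPM in CHERP knockdown. The CHERP libraries were below every other library, while the other groups overlapped. The log2 fold change in CHERP knockdown was -0.25 ± 0.0561 (adjusted p = 0.000767), against 0.12 ± 0.0560 in RBM17 knockdown (adjusted p = 0.0667) and -0.0190 ± 0.0560 in U2SURP knockdown (adjusted p = 0.820). Under GC content and length offsets the CHERP value was -0.0773 and did not pass (adjusted p = 0.156). The RBM17 value passed without RBM17 library 1 (0.17, adjusted p = 0.0140) and also with the DESeq2 Wald test (0.18, adjusted p = 0.00952), DESeq2 size factors, the 2-group fit and the offsets.

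**Figure D3:**
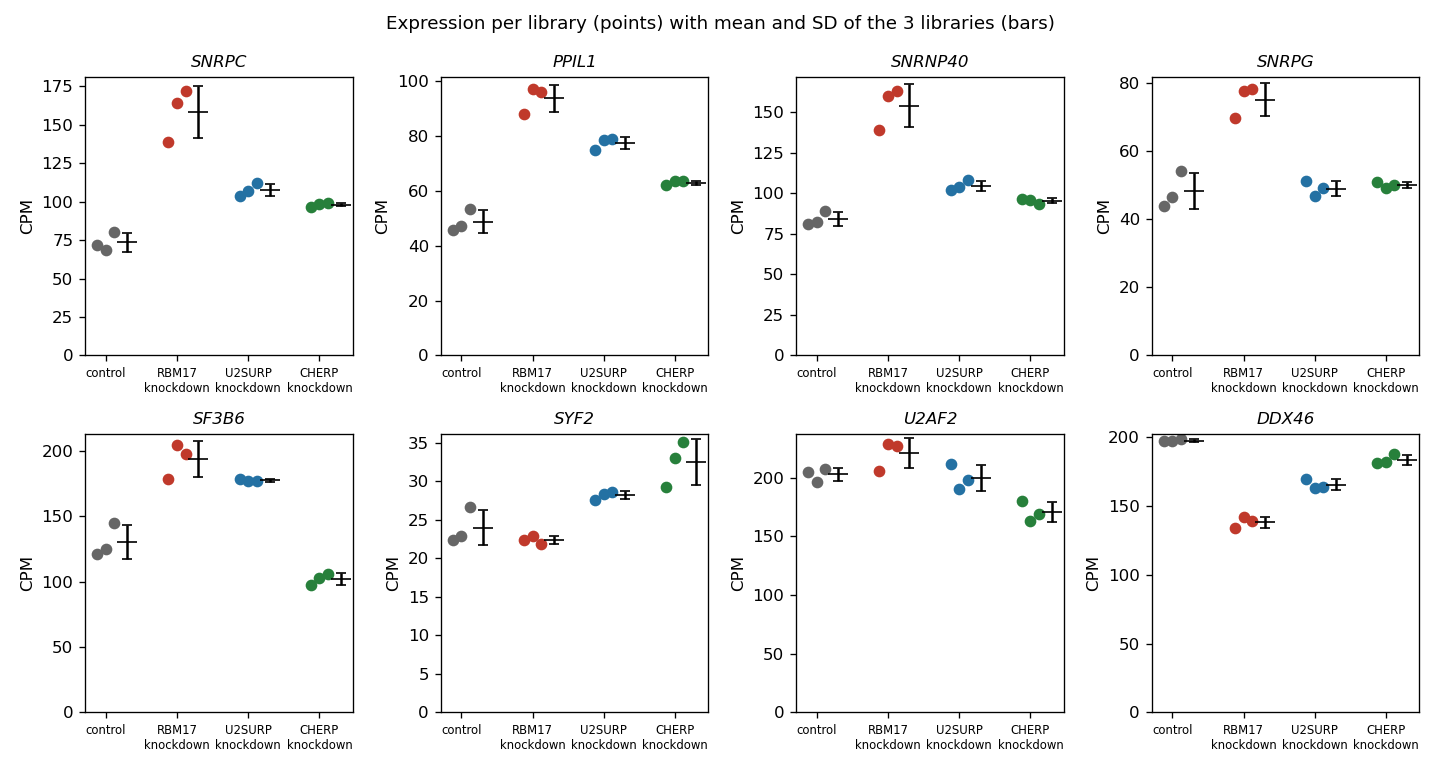
CPM (vertical axis) of 8 genes in each of the 12 libraries (points, by group on the horizontal axis), with the mean and SD of the 3 libraries of a group as bars. SNRPC, PPIL1, SNRNP40 and SNRPG are highest in RBM17 knockdown; SF3B6 and U2AF2 are lowest in CHERP knockdown, SYF2 is highest there, and DDX46 is lowest in RBM17 knockdown.

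The Sm proteins form the ring of 7 subunits around the snRNAs of U1, U2, U4 and U5. All 7 genes were higher in RBM17 knockdown (median 0.57), 5 in U2SURP knockdown (median 0.25) and 6 in CHERP knockdown (median 0.36), and none was lower. The shares higher were 100%, 71.4% and 85.7%, against 51.7%, 39.1% and 37.1% of expressed protein-coding genes. SNRPB (chr20:2461634-2470853) had the highest level per kilobase of all 55 genes, 182 CPM per kb in control and 311 in RBM17 knockdown. Its libraries were at 231, 220 and 245 CPM in control, at 365, 415 and 415 CPM in RBM17 knockdown, at 325, 300 and 333 CPM in U2SURP knockdown and at 308, 296 and 291 CPM in CHERP knockdown. Control did not overlap with any knockdown, and RBM17 knockdown was above the others. The log2 fold changes were 0.78 ± 0.0591 (adjusted p = 1.26e-10), 0.46 ± 0.0589 (adjusted p = 1.00e-06) and 0.36 ± 0.0589 (adjusted p = 1.70e-05) in RBM17, U2SURP and CHERP knockdown.

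Ring neighbours differed in which knockdown moved them. SNRPG was at 43.9, 46.6 and 54.1 CPM in control, at 69.7, 77.6 and 78.1 CPM in RBM17 knockdown, at 51.2, 46.7 and 49.1 CPM in U2SURP knockdown and at 51.0, 49.1 and 50.0 CPM in CHERP knockdown. The RBM17 libraries were above all others, and the other 3 groups overlapped. SNRPG was higher in RBM17 knockdown than in control by 0.64 ± 0.0651, than in U2SURP knockdown by 0.62 ± 0.0650 and than in CHERP knockdown by 0.59 ± 0.0650, with values of 0.0228 and 0.0534 in U2SURP and CHERP knockdown against control; the last of these passed without control library 3 (adjusted p = 0.0466).

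SNRPF was at 45.4, 45.9 and 55.8 CPM in control, at 59.4, 70.2 and 66.9 CPM in RBM17 knockdown, at 50.6, 49.6 and 53.1 CPM in U2SURP knockdown and at 62.4, 68.3 and 67.2 CPM in CHERP knockdown. RBM17 and CHERP libraries overlapped with each other and lay above control, and U2SURP libraries lay within the control range. The increase was 0.42 ± 0.0711 in RBM17 knockdown and 0.43 ± 0.0711 in CHERP knockdown, and the U2SURP value was 0.0605 ± 0.0710 (adjusted p = 0.533), which passed without control library 3 (0.16, adjusted p = 0.0392). SNRPE had values of 0.28, 0.30 and 0.47 in RBM17, U2SURP and CHERP knockdown, while SNRPD1 (0.57, 0.36 and 0.51), SNRPD2 (0.57, 0.25 and 0.33) and SNRPD3 (0.41, 0.15 and 0.19) were higher in all. SNRPD3 lost its U2SURP call without any 1 U2SURP library or control library 1 or 2 (adjusted p up to 0.129). Named pseudogenes took 6.23% to 7.56% of the joint counts for SNRPE, 4.95% to 6.61% for SNRPG and 1.56% to 2.26% for SNRPF, so reads of these genes could be split; with pseudogene counts added, SNRPG gave a log2 ratio of 0.62 in RBM17 knockdown.

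The 3 proteins specific to the U1 snRNP diverged. SNRPC (chr6:34757406-34773794), which steadies the pairing of U1 with the start of the intron, had the largest increase of all 55 genes in RBM17 knockdown. It was at 71.8, 68.4 and 80.3 CPM in control, at 139, 164 and 172 CPM in RBM17 knockdown, at 104, 107 and 112 CPM in U2SURP knockdown and at 96.8, 98.4 and 99.1 CPM in CHERP knockdown. The 4 groups did not overlap. In RBM17 knockdown it was 2.16-fold the control level (log2 fold change 1.11 ± 0.0666, adjusted p = 4.09e-12), in U2SURP knockdown 1.47-fold (0.55 ± 0.0661, adjusted p = 3.94e-07) and in CHERP knockdown 1.33-fold (0.42 ± 0.0661, adjusted p = 1.29e-05).

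SNRPA, which binds a U1 stem-loop, was at 112, 110 and 118 CPM in control, at 97.0, 107 and 109 CPM in RBM17 knockdown, at 119, 116 and 124 CPM in U2SURP knockdown and at 126, 131 and 125 CPM in CHERP knockdown. RBM17 libraries lay just below control and CHERP libraries above it. The CHERP increase of 0.17 ± 0.0528 passed (adjusted p = 0.0114), but not without CHERP library 2 (adjusted p = 0.0656) or control library 2 (adjusted p = 0.0602); the RBM17 value of -0.12 ± 0.0528 did not pass (adjusted p = 0.0566), although it passed without RBM17 library 3. The RBM17 value also passed with protein-coding genes alone (-0.19, adjusted p = 0.00149) and with offsets for GC content and length (-0.13, adjusted p = 0.00839). Compared directly, SNRPA was lower in RBM17 knockdown than in U2SURP knockdown (-0.20 ± 0.0528, adjusted p = 0.00333) and than in CHERP knockdown (-0.29 ± 0.0528, adjusted p = 6.71e-05).

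SNRNP70, the third U1 protein, was at 333, 307 and 302 CPM in control, at 286, 279 and 281 CPM in RBM17 knockdown, at 307, 274 and 278 CPM in U2SURP knockdown and at 292, 279 and 271 CPM in CHERP knockdown. RBM17 and CHERP libraries lay below control, and U2SURP libraries overlapped with it. Its values of -0.15 ± 0.0548 in RBM17 knockdown (adjusted p = 0.0201) and -0.16 ± 0.0548 in CHERP knockdown (adjusted p = 0.0173) passed, and -0.13 ± 0.0548 in U2SURP knockdown did not (adjusted p = 0.0529). Control library 1 was the highest, and without it neither passed (-0.11, adjusted p = 0.132, and -0.12, adjusted p = 0.117). The RBM17 call was also lost without RBM17 library 2 (adjusted p = 0.0622) or 3 (adjusted p = 0.0550), the CHERP call without CHERP library 2 (adjusted p = 0.0579), and the U2SURP value passed without U2SURP library 1 or control library 3. The RBM17 value did not pass with the DESeq2 Wald test either (-0.0993, adjusted p = 0.136), nor with DESeq2 size factors or the 2-group fit. With protein-coding genes alone the U2SURP value passed (-0.14, adjusted p = 0.0282). Under GC content and length offsets the CHERP value turned to 0.0888 (adjusted p = 0.0655).

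The U4/U6.U5 tri-snRNP brings the future active site. All 11 of its listed genes and B complex partners were higher in RBM17 knockdown (median 0.56, range 0.24 to 0.87), 9 in U2SURP knockdown (median 0.24) and 7 in CHERP knockdown (median 0.20), with none lower. The shares higher were 100%, 81.8% and 63.6%, against 51.7%, 39.1% and 37.1% of expressed protein-coding genes. SNRNP40, a WD-repeat protein of U5, led in RBM17 knockdown. It was at 80.8, 82.5 and 88.9 CPM in control, at 139, 160 and 163 CPM in RBM17 knockdown, at 102, 104 and 108 CPM in U2SURP knockdown and at 96.6, 95.8 and 93.6 CPM in CHERP knockdown. Groups did not overlap. The increase was 1.83-fold in RBM17 knockdown (log2 fold change 0.87 ± 0.0578, adjusted p = 1.56e-11), 0.32 ± 0.0575 on the log2 scale in U2SURP knockdown and 0.18 ± 0.0575 in CHERP knockdown (adjusted p = 0.0116). The last did not pass without control library 1 (0.15, adjusted p = 0.0608) or with offsets for GC content and length (0.0919, adjusted p = 0.141).

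PRPF8, the scaffold of the catalytic core, had the highest level per kilobase in this group (82.3 CPM per kb over all libraries). It was at 750, 738 and 748 CPM in control, at 1070, 1280 and 1290 CPM in RBM17 knockdown, at 795, 851 and 879 CPM in U2SURP knockdown and at 922, 955 and 931 CPM in CHERP knockdown. The 4 groups did not overlap. It rose by 0.70 ± 0.0626 in RBM17 knockdown, by 0.33 ± 0.0624 in CHERP knockdown and by 0.18 ± 0.0623 in U2SURP knockdown (adjusted p = 0.0250); the last did not pass without U2SURP library 2 or 3 or control library 1 or 2 (adjusted p from 0.0542 to 0.124).

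PRPF6, which bridges U5 with U4/U6, was at 97.6, 94.0 and 103 CPM in control, at 138, 161 and 158 CPM in RBM17 knockdown, at 131, 140 and 138 CPM in U2SURP knockdown and at 146, 149 and 152 CPM in CHERP knockdown. Control was below every knockdown library. Its 0.60 ± 0.0566 was, with SF3A1, the largest increase among members in CHERP knockdown, and its values in RBM17 and U2SURP knockdown were 0.64 and 0.47. The GTPase EFTUD2 and the tri-snRNP protein USP39 rose in RBM17 knockdown (0.56 and 0.76) and U2SURP knockdown (0.19 and 0.32), with values of -0.0750 and 0.12 in CHERP knockdown. EFTUD2 lost its U2SURP call without U2SURP library 3 (adjusted p = 0.0528). USP39 passed in CHERP knockdown in 6 of 12 alternatives. These were leaving out control library 3, DESeq2 size factors, the DESeq2 Wald test, the 2-group fit, protein-coding genes alone and offsets for GC content and length. The U4/U6 proteins PRPF3 (0.33, 0.24 and 0.0731), PRPF4 (0.52, 0.13 and 0.22) and PRPF31 (0.60, 0.39 and 0.31), the helicase SNRNP200 that unwinds U4 from U6 (0.30, 0.0438 and 0.0580), SART1 (0.49, 0.29 and 0.20) and PRPF38A (0.24, 0.17 and 0.28) completed the group, each in the order RBM17, U2SURP and CHERP knockdown. In U2SURP knockdown PRPF38A lost its call without U2SURP library 2 or 3 or control library 1 or 2 (adjusted p up to 0.125). PRPF4 passed there in 5 of 12 alternatives: without control library 3, and with DESeq2 size factors, the DESeq2 Wald test, the 2-group fit or the offsets. With the offsets SNRNP200 passed in CHERP knockdown (adjusted p = 0.00216).

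The PRPF19 complex and its partners hold the activated spliceosome together. Of these 12 genes, 11 were higher in RBM17 knockdown (median 0.40), 9 in U2SURP knockdown (median 0.24) and all 12 in CHERP knockdown (median 0.28), with none lower. The shares higher were 91.7%, 75.0% and 100%, against 51.7%, 39.1% and 37.1% of expressed protein-coding genes. PPIL1, a cyclophilin that isomerises prolines, was at 45.6, 47.1 and 53.4 CPM in control, at 87.8, 97.0 and 96.0 CPM in RBM17 knockdown, at 75.0, 78.4 and 78.8 CPM in U2SURP knockdown and at 62.1, 63.4 and 63.4 CPM in CHERP knockdown. The 4 groups did not overlap. It was 1.92-fold the control level in RBM17 knockdown (log2 fold change 0.94 ± 0.0576, adjusted p = 5.11e-12), 1.59-fold in U2SURP knockdown (0.67 ± 0.0574, adjusted p = 3.03e-09), the largest increase of any member there, and 1.29-fold in CHERP knockdown (0.37 ± 0.0573, adjusted p = 8.90e-06).

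PRPF19, the ubiquitin ligase that gives the complex its name, was at 184, 180 and 191 CPM in control, at 279, 324 and 319 CPM in RBM17 knockdown, at 220, 230 and 232 CPM in U2SURP knockdown and at 225, 228 and 232 CPM in CHERP knockdown. Control lay below, and U2SURP and CHERP libraries overlapped with each other. It rose by 0.73 ± 0.0552 in RBM17 knockdown and by 0.30 ± 0.0550 in each of U2SURP and CHERP knockdown. XAB2, a repeat-rich scaffold, was at 48.4, 46.4 and 48.0 CPM in control, at 60.5, 65.9 and 66.3 CPM in RBM17 knockdown, at 66.6, 71.9 and 74.3 CPM in U2SURP knockdown and at 65.6, 71.1 and 67.2 CPM in CHERP knockdown. Control lay below every knockdown library, and CHERP libraries overlapped with both other knockdowns. Its increase was 0.43 ± 0.0545 in RBM17 knockdown, 0.57 ± 0.0545 in U2SURP knockdown and 0.51 ± 0.0545 in CHERP knockdown. XAB2 was lower in RBM17 than in U2SURP knockdown (-0.14 ± 0.0543, adjusted p = 0.0352), a call lost without RBM17 library 1 (-0.10, adjusted p = 0.158) or U2SURP library 2 or 3 (adjusted p = 0.104 and 0.180). That call was also lost with the DESeq2 Wald test (-0.12, adjusted p = 0.0994), DESeq2 size factors and unfiltered counts.

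BUD31 was at 17.7, 18.2 and 20.1 CPM in control, at 25.5, 28.6 and 28.1 CPM in RBM17 knockdown, at 25.9, 28.5 and 27.2 CPM in U2SURP knockdown and at 21.3, 21.4 and 21.6 CPM in CHERP knockdown. The RBM17 and U2SURP libraries overlapped, and CHERP libraries lay between them and control. The log2 fold changes were 0.55 ± 0.0613, 0.54 ± 0.0613 and 0.20 ± 0.0613; the CHERP call was lost without CHERP library 3 (0.16, adjusted p = 0.0587) or control library 1 (0.16, adjusted p = 0.0570). Exons of PTCD1 on the opposite strand cover 38.7% of the exon length of BUD31, and PTCD1 itself had log2 fold changes of 0.54, 0.16 and 0.19. Without strand the reads of these genes cannot be told apart.

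SYF2, a small partner of the complex, had its highest values in CHERP knockdown. It was at 22.4, 22.9 and 26.6 CPM in control, at 22.4, 22.9 and 21.9 CPM in RBM17 knockdown, at 27.6, 28.3 and 28.6 CPM in U2SURP knockdown and at 29.3, 33.0 and 35.1 CPM in CHERP knockdown. RBM17 libraries overlapped with control, and the other knockdowns lay above both. SYF2 was higher than control by 0.44 ± 0.0675 in CHERP knockdown (adjusted p = 9.02e-06) and by 0.23 ± 0.0675 in U2SURP knockdown (adjusted p = 0.00693), with a value of -0.0991 ± 0.0677 in RBM17 knockdown (adjusted p = 0.226). That value was -0.17 when protein-coding genes alone were fitted (adjusted p = 0.0272) and -0.23 with offsets for GC content and length (adjusted p = 0.00143).

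RBM22, which contacts U6 and the intron in the active spliceosome, was at 68.1, 68.9 and 73.9 CPM in control, at 85.6, 96.6 and 94.9 CPM in RBM17 knockdown, at 74.1, 72.9 and 74.9 CPM in U2SURP knockdown and at 86.8, 87.2 and 87.2 CPM in CHERP knockdown. U2SURP libraries overlapped with control and the others lay above. The increase was 0.39 ± 0.0519 in RBM17 knockdown and 0.31 ± 0.0519 in CHERP knockdown, and the U2SURP value was 0.0739 ± 0.0519 (adjusted p = 0.272). Other genes of the group gave, in the order RBM17, U2SURP and CHERP knockdown, 0.66, 0.24 and 0.27 for CRNKL1, 0.40, 0.18 and 0.21 for PLRG1, 0.33, 0.18 and 0.21 for CDC5L and 0.17, 0.27 and 0.19 for ISY1. CWC15 (0.30, 0.11 and 0.28) and the intron-binding helicase AQR (0.33, 0.0696 and 0.16) passed in RBM17 and CHERP knockdown. PLRG1 and CDC5L lost their CHERP calls without CHERP library 3 (adjusted p = 0.0618 and 0.0514), and CWC15 passed in U2SURP knockdown without control library 3 (adjusted p = 0.00988). In U2SURP knockdown CDC5L was not called without U2SURP library 2 or control library 1 or 2 (adjusted p up to 0.0797), nor PLRG1 without U2SURP library 2 or 3 or control library 1 or 2 (adjusted p up to 0.0926). AQR lost its CHERP call without CHERP library 3 (adjusted p = 0.114) or control library 1. ISY1, the member with the lowest level per kilobase (3.32 CPM per kb), lost its RBM17 call without RBM17 library 1 or 2 or control library 1 or 2. That call was also lost with unfiltered counts, protein-coding genes alone and offsets for GC content and length (adjusted p up to 0.124 over all alternatives). ISY1 lost its CHERP call without CHERP library 2 (adjusted p = 0.109) or control library 2. Exons of ISY1-RAB43 on the same strand cover 22.2% of the exon length of ISY1. As ISY1-RAB43 had a mean of 0 CPM, reads shared by both genes may be missing from the level of ISY1, which was not tested.

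The factors of the catalytic steps were higher in 5 of 6 genes in RBM17 knockdown (median 0.43), in 6 of 6 in U2SURP knockdown (median 0.25) and in 5 of 6 in CHERP knockdown (median 0.23), with none lower. The shares higher were 83.3%, 100% and 83.3%, against 51.7%, 39.1% and 37.1% of expressed protein-coding genes. CWC22, which places the exon junction complex, was at 48.3, 50.0 and 54.1 CPM in control, at 67.6, 73.5 and 68.6 CPM in RBM17 knockdown, at 62.3, 67.0 and 62.5 CPM in U2SURP knockdown and at 63.7, 64.0 and 65.8 CPM in CHERP knockdown. Control lay below all knockdown libraries, which gave increases of 0.46, 0.33 and 0.34. The helicase DHX8, which releases the spliced message, rose by 0.59 ± 0.0520, 0.34 ± 0.0519 and 0.14 ± 0.0519 in RBM17, U2SURP and CHERP knockdown; the last was lost without CHERP library 1 (0.0766, adjusted p = 0.251), CHERP library 2, or control library 1 or 2. DHX16, the helicase before the first step, rose by 0.35, 0.28 and 0.18, and the second-step factors SLU7 and CDC40 by 0.41, 0.23 and 0.28 and by 0.46, 0.22 and 0.34. DHX38, the helicase between the steps, was higher in U2SURP knockdown (0.15 ± 0.0477, adjusted p = 0.0120), a call lost without U2SURP library 1 or 3, with values of 0.0892 in RBM17 knockdown and 0.11 in CHERP knockdown. Both of those passed with DESeq2 size factors, the DESeq2 Wald test and the offsets for GC content and length, which gave 0.22 in CHERP knockdown (adjusted p = 1.61e-05).

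**Figure D4:**
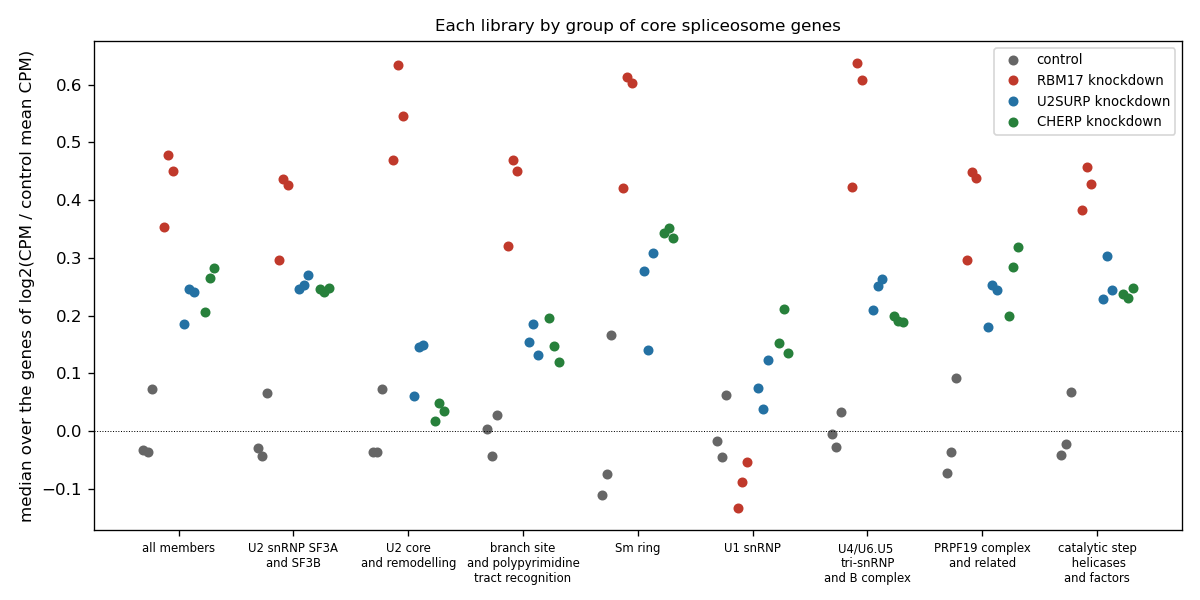
Median over the genes of each group (horizontal axis) of the log2 ratio of CPM to the control mean (vertical axis), 1 point per library. Over all 55 genes the RBM17 libraries sit at 0.353, 0.478 and 0.450, above the U2SURP and CHERP libraries, and U1 snRNP genes are the group where the RBM17 libraries are lowest.

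Seen by library, the median over all 55 genes of the log2 ratio to the control mean was -0.033, -0.037 and 0.072 in control, 0.353, 0.478 and 0.450 in RBM17 knockdown, 0.186, 0.246 and 0.240 in U2SURP knockdown, and 0.207, 0.265 and 0.283 in CHERP knockdown. All knockdown libraries were above all control libraries, RBM17 libraries were above all others, and U2SURP and CHERP libraries overlapped. Within RBM17 knockdown, library 1 was the lowest for the median of all members. The Sm ring spread most among control libraries, from -0.111 to 0.167, where library 3 was highest.

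In direct comparisons of the knockdowns, RBM17 depletion gave the higher level for most members, and also for most expressed protein-coding genes. Against U2SURP knockdown 36 members were higher in RBM17 knockdown and 4 lower, with a median of 0.20, where 44.5% of all genes tested were called (23.0% higher, 21.5% lower) and 63.6% of expressed protein-coding genes were called, 46.2% higher, with a median of 0.12. Protein-coding genes fitted alone gave 31 higher and 7 lower. Against CHERP knockdown 31 were higher and 5 lower, with a median of 0.19, where 51.6% of all genes tested were called (26.1% higher, 25.5% lower) and 69.6% of expressed protein-coding genes were called, 51.0% higher, with a median of 0.15. The same fit gave 27 higher and 9 lower in the latter comparison, and offsets for GC content and length gave 30 higher and 11 lower. In the main fit 56.4% of members were higher than in CHERP knockdown, near the 51.0% of expressed protein-coding genes. The same RBM17 libraries enter both comparisons.

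The largest of these differences fell on SNRPG (0.62), SNRPC (0.56 ± 0.0660, adjusted p = 2.66e-07) and SNRNP40 (0.56 ± 0.0575, adjusted p = 3.58e-08) against U2SURP knockdown, and on SF3B6 (0.93), SNRNP40 (0.69 ± 0.0576) and SNRPC (0.69 ± 0.0661) against CHERP knockdown. Lower in RBM17 knockdown than in either other knockdown were SYF2 (-0.33 ± 0.0676 and -0.54 ± 0.0676), DDX46 (-0.26 ± 0.0468 and -0.41 ± 0.0468) and SNRPA (-0.20 and -0.29), against U2SURP and CHERP knockdown in that order. The other members called lower were XAB2 against U2SURP knockdown, and SF3A2 (-0.23 ± 0.0576) and SNRPE (-0.19 ± 0.0759) against CHERP knockdown. SNRPE lost that call without RBM17 library 1 or 3 or CHERP library 2 or 3 (adjusted p up to 0.422). EFTUD2 and USP39 were each higher by 0.64 in RBM17 than in CHERP knockdown.

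U2SURP and CHERP knockdown differed less, over the members and over all genes tested alike. Of the members 9 were higher in U2SURP knockdown (16.4%), 9 lower (16.4%) and 37 not called, with a median of -0.0297. Of all genes tested 27.9% were called (15.0% higher, 12.9% lower). Of expressed protein-coding genes 42.1% were called (25.9% higher, 16.2% lower). SF3B6 led the higher genes (0.80), followed by BUD31 (0.34 ± 0.0611, adjusted p = 0.000141) and SNRPA1 (0.34 ± 0.0493, adjusted p = 1.15e-05). SNRPF (-0.37 ± 0.0710, adjusted p = 0.000372), RBM22 (-0.24 ± 0.0519, adjusted p = 0.00123) and SNRPB2 (-0.21 ± 0.0722, adjusted p = 0.0314) were the lowest, and the SNRPB2 call was lost without any 1 of U2SURP libraries 1, 2 and 3 or CHERP libraries 2 and 3 (adjusted p from 0.0559 to 0.171). SNRPA1 and SNRPB2, partners on U2 snRNA, thus had direct differences of opposite sign. The number of members called fell to 11 without U2SURP library 3 or without CHERP library 2, and rose to 29 with offsets for GC content and length.

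**Figure D5:**
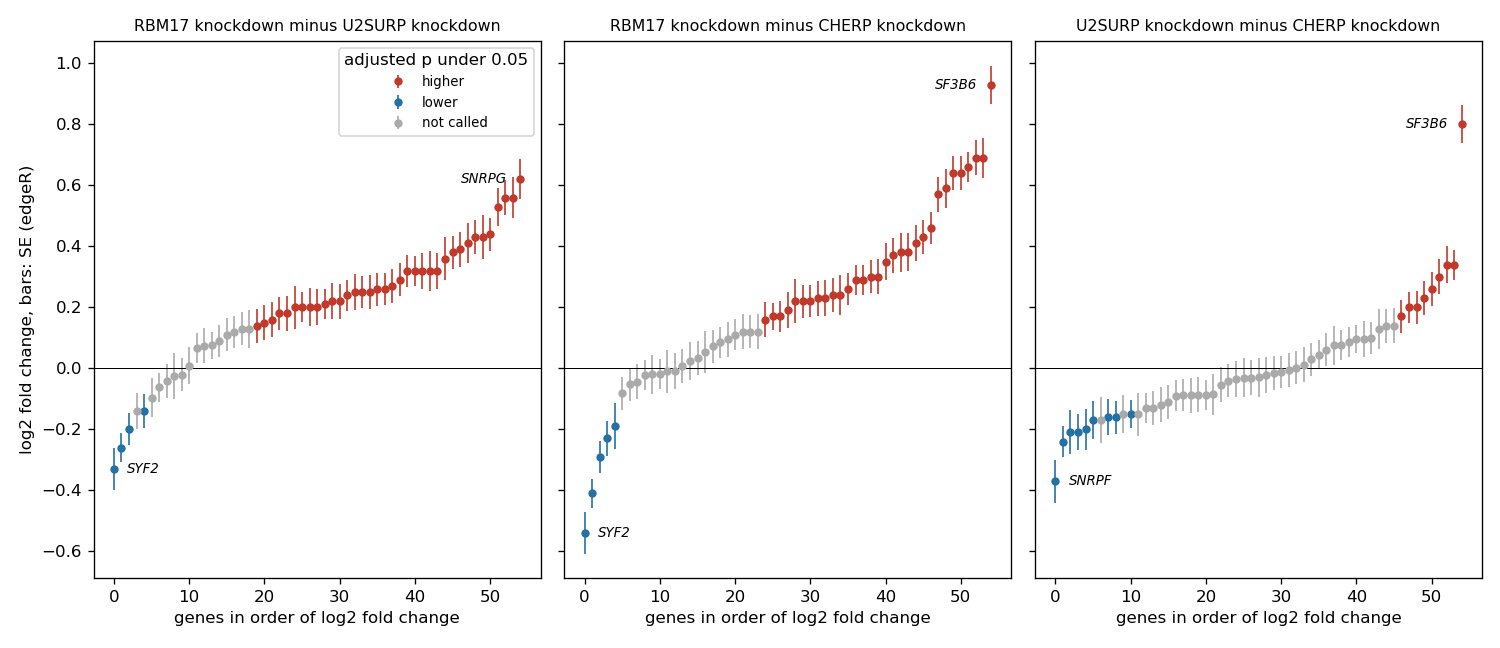
Log2 fold change with SE (vertical axis) of the 55 genes in order of size (horizontal axis) in each direct comparison of knockdowns, coloured by whether the adjusted p was under 0.05. Most genes are above 0 in the comparisons with RBM17 knockdown in first place (36 and 31 called higher), and SF3B6 stands apart in both comparisons with CHERP knockdown (0.93 and 0.80).

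Gene structure and level were set beside the size of the change. Across the 55 members Spearman's rho of the log2 fold change in RBM17 knockdown was -0.07 with the number of introns, -0.21 with exonic length, -0.10 with GC content and 0.03 with mean CPM, given as a description since all genes share the same libraries. In U2SURP knockdown the same values were -0.07, -0.20, 0.13 and -0.05, and in CHERP knockdown -0.10, -0.12, -0.06 and -0.16. The members lie on 18 chromosomes, at most 7 on any.

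Beyond the 55, 5 further lists with 85 genes of the splicing machinery gave 63 higher and 11 lower in RBM17 knockdown (median 0.32), 51 higher and 17 lower in U2SURP knockdown (median 0.20) and 49 higher and 15 lower in CHERP knockdown (median 0.21). As shares, 74.1% were higher and 12.9% lower in RBM17 knockdown, against 51.7% and 23.6% of expressed protein-coding genes. The shares were 60.0% and 20.0% in U2SURP knockdown, against 39.1% and 27.6%, and 57.6% and 17.6% in CHERP knockdown, against 37.1% and 32.5%. These lists too were chosen with earlier results of these data known, so the shares are descriptions. The LSm ring of U6 and factors that handle U6 had 10 higher and 1 lower of 13 in RBM17 knockdown, 8 and 1 in U2SURP knockdown, and 10 and 0 in CHERP knockdown, led in RBM17 knockdown by LSM4 (1.00 ± 0.0609) and USB1 (0.80 ± 0.0624). Of 18 factors of snRNP assembly and import, 16 were higher in RBM17 knockdown and none lower. In U2SURP knockdown 12 were higher and 2 lower, and in CHERP knockdown 11 and 1. WDR77 and PRMT5, partners in the methylation of Sm proteins, rose in RBM17 knockdown by 1.01 ± 0.0716 and 0.89 ± 0.0596. In U2SURP and CHERP knockdown WDR77 was lower (-0.18 ± 0.0713, adjusted p = 0.0425, and -0.22 ± 0.0713, adjusted p = 0.0145). These calls of WDR77 were lost without any 1 U2SURP library or control library 2 or 3, and without CHERP library 2 or control library 2.

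The remaining lists held genes of both directions. Of 15 other U1, U2 and A complex genes, 8 were higher and 5 lower in RBM17 knockdown, 7 and 6 in U2SURP knockdown, and 6 and 6 in CHERP knockdown. As shares these were 53.3% higher and 33.3% lower in RBM17 knockdown and 40.0% each in CHERP knockdown, near the shares of expressed protein-coding genes. LUC7L, a relative of a yeast U1 protein, was at -0.87 ± 0.0544, -1.05 ± 0.0546 and -1.41 ± 0.0552. U2AF1, the small U2AF subunit, was at -1.28 ± 0.394 in CHERP knockdown (adjusted p = 0.0269), but a near-identical copy makes its counts uncertain, and the call was lost without any 1 CHERP library or control library 1 or 3. Of 10 genes of the U11/U12 minor spliceosome, 7 were higher and 2 lower in RBM17 knockdown, 5 and 2 in U2SURP knockdown, and 5 and 3 in CHERP knockdown. As shares these were 70.0% and 20.0%, 50.0% and 20.0%, and 50.0% and 30.0%. Among expressed protein-coding genes the shares were 51.7% and 23.6%, 39.1% and 27.6%, and 37.1% and 32.5%. RNPC3, a protein of the U11/U12 particle, was at -1.04 ± 0.0582, -0.69 ± 0.0578 and -0.69 ± 0.0577 in RBM17, U2SURP and CHERP knockdown. Of 29 other tri-snRNP, B complex and catalytic genes, 22 were higher and 3 lower in RBM17 knockdown (19 and 6 in U2SURP knockdown, 17 and 5 in CHERP knockdown). BCAS2, a PRPF19 complex subunit, rose by 0.93, 0.60 and 0.63, and the kinase PRPF4B fell by 0.56, 0.52 and 0.42 on the log2 scale.

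Exons of 22 of the 55 genes overlap those of another annotated gene, 4 of them on the same strand, and 13 have named pseudogenes, so part of their reads could be split or shared.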

How the data were processed

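RNA of 12 libraries (3 for each of 4 siRNA groups) was prepared with a stranded mRNA kit, per the labels' protocols. The authors deposited raw counts per Ensembl gene for each library. HISAT2 2.0.5, SAMtools, HTSeq and GRCh38 are named, without roles, in the submitters' processing notes; neither strand setting nor annotation release is given in the sources used here. GENCODE 29 named 56996 of 60554 identifiers. Counts passing filterByExpr (29003 genes) entered a robust quasi-likelihood model of all 4 groups after TMM scaling (edgeR 4.0.16 under R 4.3.3, common biological coefficient of variation 0.0866), and an adjusted p under 0.05 was the call. Each SE was derived from the fold change and its F statistic. The procedure was tested on simulated data.

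Groups came from the labels, where no replicate number pairs libraries; chi-square per gene between replicates was 11.68 to 51.69, so none was a duplicate. Members and lists were chosen with earlier results of these data known, so their counts are descriptions. Per-library values were given for the 4 largest called changes per direction against control, the 3 largest per direction between knockdowns and the highest CPM per kb of each group; in the other lists up to 2 called genes per direction could be named. Genes outside this rule were named with their log2 fold changes, with SE, adjusted p or the effect of a left-out library where a call turned on them. CPM per kb used the union of GENCODE 29 exons. Motifs were sought on both strands. Alternatives were a Wald test in DESeq2 1.42.0, its size factors in edgeR, unfiltered counts, 2-group fits, protein-coding genes alone, offsets for GC content and length, and leaving out each library. Figures used matplotlib 3.10.9.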

Additional observations from a re-analysis of the deposited data

How the results depend on the processing

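No paired analysis was possible because the labels carry no replicate numbers. Of the members called, 47 of 51 in RBM17 knockdown, 31 of 39 in U2SURP knockdown and 33 of 44 in CHERP knockdown were called under every alternative, and 30 of 40, 30 of 36 and 10 of 18 in the comparisons of RBM17 with U2SURP, RBM17 with CHERP and U2SURP with CHERP knockdown. Counts of called members stayed within 1.5 times in all comparisons but the last: there 29 were called with offsets for GC content and length (11 higher, 18 lower), 26 with protein-coding genes alone (9 higher, 17 lower), and 11 to 16 with 1 library left out. With those offsets SF3A2 in U2SURP knockdown turned from -0.024 to 0.16 (adjusted p = 0.0119), SNRNP70 in CHERP knockdown to 0.0888 (adjusted p = 0.0655) and SNRNP70 between RBM17 and CHERP knockdown to -0.22 (adjusted p = 6.58e-05). With 1 library left out the median between U2SURP and CHERP knockdown ranged from -0.0534 (without CHERP library 1) to 0.00463 (without U2SURP library 1), and was 0.00183 without CHERP library 3. Medians against control moved as well. In RBM17 knockdown the median was 0.36 with protein-coding genes alone and 0.50 without control library 3. Without control library 3 it was 0.29 in U2SURP knockdown and 0.29 in CHERP knockdown. In U2SURP knockdown it was 0.20 without control library 1. The cause was not tested. Protein-coding genes alone or offsets gave 27 higher and 9 lower, or 30 and 11, between RBM17 and CHERP knockdown. At this depth counting error was small beside the spread between libraries. A simulation of the RBM17 comparison over 27180 genes, again with 3 libraries per group, changed only a small set of genes. It recovered 34% of 50 genes changed by 0.25 on the log2 scale, 72% at 0.5 and 100% at 1. It also called 15 unchanged genes. In the data 54.7% of genes tested were called and all 12 libraries were fitted, so these rates do not carry over to the members.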
